A study of Homo sapiens with 4 samples.

Results

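The response of ribosome footprints to erythromycin was compared between HEK293 cells with mutated RPL4 and wild type HEK293 cells, gene by gene. HEK293 is an established human embryonic kidney line, and footprints are the mRNA pieces that ribosomes protect from nuclease. All 4 libraries of the series entered the comparison, with 1 library in each group: RPL4 mutant with erythromycin, RPL4 mutant without it, wild type with erythromycin and wild type without it. For each gene, the response of a genotype was the log2 ratio of RPKM (reads scaled by coding length and by library size) with erythromycin over RPKM without it, each plus 1 RPKM, centred on the median gene. The response difference was the response of the mutant minus the response of wild type. It was computed for the 9612 genes that averaged 5 RPKM or more, out of 16292 transcripts listed in any library. The labels describe stable lines with a GFP, an RPL4 wild type or an RPL4 loop-deletion construct, and lentivirus that carried an shRNA to RPL4 or a scrambled control. They name cycloheximide and lactimidomycin as the agents that hold ribosomes in place. Which line, hairpin and agent each library had is not stated in the sources used here, nor is the dose of erythromycin or the number of clones.

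Erythromycin is a macrolide antibiotic that binds in the peptide exit tunnel of the bacterial ribosome and stops the elongation of many, though not all, nascent chains. RPL4 is a protein of the large subunit of the cytosolic ribosome, and a loop of it reaches into the wall of the exit tunnel. Mitochondrial ribosomes, which make the proteins encoded by mitochondrial DNA, are more like bacterial ribosomes than cytosolic ones are. A footprint level holds both the amount of an mRNA and how densely ribosomes cover it, and without mRNA libraries these were not separated. A lower level can likewise mean fewer cells that make a product or less of it per cell, and these cannot be told apart here.

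The libraries differed in depth. The mutant libraries held 993461 reads with erythromycin and 604506 without it, against 2555613 and 2965243 in wild type. The median gene had 40 and 23 reads in the mutant with and without erythromycin, and 91 and 108 reads in wild type with and without it. Each group had a single library, so nothing was tested across replicates, and values are given with 95% counting intervals that cover counting error only. Of the markers of HEK293 cells, NEFL, VIM, KRT8 and KRT18 were between 43.59 and 1100.4 RPKM in the 4 libraries, whereas NEFM and PAX2 did not exceed 2.69 RPKM. Markers of blood cells, fibroblasts, liver and red cells did not exceed 12.35 RPKM, the highest being CD68, or were not listed.

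RPL4 itself (chromosome 15, 66498015 to 66504883, minus strand, GRCh38) was at 1439 RPKM in the mutant with erythromycin and 1707 RPKM without it, against 2586 and 2515 RPKM in wild type. Both mutant libraries were thus below both wild type libraries. Its response was -0.30 in the mutant (interval -0.40 to -0.20) and 0.06 in wild type (0.01 to 0.10), a response difference of -0.35 (-0.46 to -0.24). An RPL4 transgene would be counted with the resident gene, so the level does not check the genotype.

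As measured across genes, the responses of the genotypes were almost unrelated. Pearson's r was 0.0390 and Spearman's rank correlation 0.0284 over 9612 genes, and 4868 genes (50.6%) responded in the same direction in both genotypes. These are descriptions across genes that share the same 4 libraries and are not independent replicates. Counting error lowers such correlations, and its part here was not tested. Responses spread more widely in the mutant (SD 0.665) than in wild type (SD 0.442), and the response difference had an SD of 0.784. Fewer reads give a larger counting error, and the mutant libraries were the shallower ones. Among the 4506 better covered genes defined below, the SDs were 0.489 in the mutant and 0.362 in wild type. The part of depth in this contrast was not tested. The quartiles of the response difference were -0.37 and 0.44. In the plot of the responses, the cloud of genes is wider along the mutant axis and does not follow the diagonal.

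**Figure D1:**
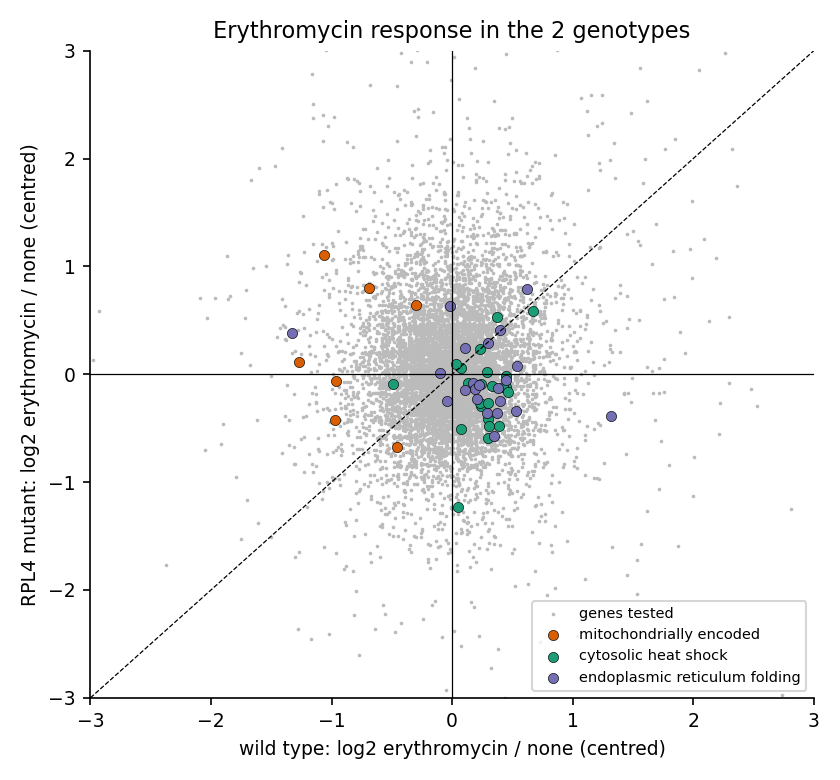
Erythromycin response of each gene in RPL4 mutant cells (vertical axis, centred log2 ratio) against the response in wild type cells (horizontal axis, same scale); grey points are the genes tested, of which 55 lie outside the axes, coloured points are members of 3 gene lists, and the dashed line marks equal responses. All 7 mitochondrially encoded genes lie left of 0, and 22 of 23 cytosolic heat-shock genes lie right of 0.

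The spread varied with depth, given as the reads that the mean RPKM of a gene leads one to expect in the shallowest library. Among 568 genes with under 5 expected reads, the SD of the response difference was 1.55 and the median counting error 1.13. Among 620 genes with 100 to 200 expected reads these were 0.487 and 0.184, and among 167 genes with 500 or more they were 1.02 and 0.0738, so the spread exceeded counting error in the best covered genes. In this last class 5.99% of genes passed 2-fold. It holds DUXAP10 (-8.66), DBP (-5.86), ZNFX1 (-5.00) and CREG2 (3.37), described below, and such values weigh heavily on an SD and on Pearson's r. The same-sign share was 52.5% in the lowest depth class, 47.1% at 100 to 200 reads and 44.3% in the highest. Pearson's r was 0.0153, 0.215 and -0.000362 in the same 3 classes, and Spearman's rank correlation was 0.0321, -0.0210 and -0.0968. The median response difference moved with depth, being 0.14 in the lowest class and -0.14 in the highest. The share of genes below 0 was 44.7% in the lowest class and 67.1% in the highest. The share with an interval below 0 was 5.11% in the lowest class and 50.9% in the highest, and the share with one above 0 was 3.17% and 18.6%. The response difference also moved with the base composition of the coding sequence, with a median of 0.18 in the fifth of genes richest in G and C and -0.11 in the poorest. The part of depth and composition in the results that follow was not tested.

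**Figure D2:**
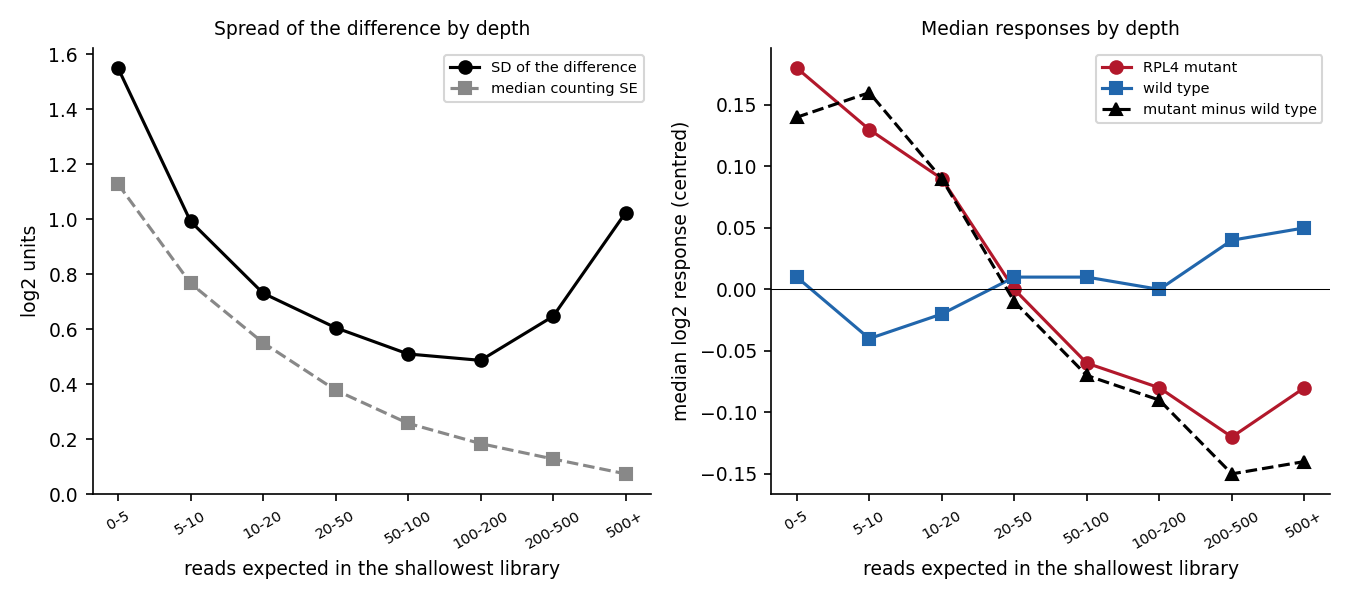
Left, SD of the response difference and median counting error (log2 units) by the number of reads expected in the shallowest library, which is the mutant without erythromycin; right, median response of RPL4 mutant and of wild type and median response difference in the same classes. The SD falls to 0.487 at 100 to 200 reads and is 1.02 in the deepest class, which holds a few genes with very large differences, such as DUXAP10. The median response difference goes below 0 as depth rises.

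A response difference of at least 2-fold was found for 802 genes that were higher in the mutant (8.34% of genes tested) and 536 that were lower (5.58%), together 1338 (13.9%). Of these, 466 higher (4.85%) and 355 lower (3.69%) also had a counting interval that left out 0. Among the 466 higher genes, the mutant response alone passed 2-fold in 232 and the wild type response alone in 48. Among the 355 lower genes, the mutant response alone passed it in 136 and the wild type response alone in 50. The mutant responses rest on fewer reads than the wild type ones, and the part of this in these counts was not tested. Opposite signs were seen in 406 of the 466 and 316 of the 355, against 4744 of all genes tested (49.4%), and choosing genes by a large difference favours them. A single library stood at least 2-fold away from the other 3, which lay within 2-fold of each other, in a minority: the mutant with erythromycin was alone on the high side in 63 of the 466 and alone on the low side in 26 of the 355. The mutant without erythromycin was alone on the low side in 29 of the 466 and on the high side in 26 of the 355. Wild type with erythromycin was alone on the low side in 15 of the 466 and on the high side in 7 of the 355. Wild type without erythromycin was alone on the high side in 6 of the 466 and on the low side in 14 of the 355. The matching shares over all genes tested are not given here, so these counts stand without a background.

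Strong responses in both genotypes were rare in either arrangement. At 2-fold in both, 27 genes (0.281%) were higher with erythromycin in the mutant and lower in wild type, and 16 (0.166%) were lower in the mutant and higher in wild type. Agreement at 2-fold was seen for 43 genes that were higher in both (0.447%) and 18 that were lower in both (0.187%). Whatever the other genotype did, the mutant response reached 2-fold up in 598 genes (6.22%) and down in 326 (3.39%), and the wild type response up in 166 (1.73%) and down in 148 (1.54%). These counts were not corrected for the smaller number of reads in the mutant libraries.

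With a counting interval that left out 0 in each genotype, whatever the size, 190 genes were lower in the mutant and higher in wild type (1.98%) and 112 were the reverse (1.17%). By the same criterion, 167 genes were higher in both (1.74%) and 154 were lower in both (1.6%). Among 4506 genes of at least 20 mean RPKM and 20 expected reads in the shallowest library, 475 met it: 77 opposed with the mutant higher, 160 opposed with the mutant lower, 117 were higher in both and 121 were lower in both. The 77 had a median GC content of 56.1% in their coding sequence and the 160 had 48.5%, against 52.3% in all genes tested. The genes that agreed on a higher level had 52.4%, and those that agreed on a lower level 56.0%. Named genes below come from these 4506 unless they are given as members of a gene list.

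Most genes with the highest response differences had one mutant library far above the other. CREG2 (chromosome 2, 101345551 to 101387595, minus strand), which encodes a secreted glycoprotein, was at 2262 RPKM in the mutant with erythromycin and 415 without it, against 484 and 967 RPKM in wild type. The mutant library with erythromycin was the highest and the wild type one was below its own control, giving responses of 2.39 (2.19 to 2.59) and -0.98 (-1.09 to -0.88). The response difference of CREG2 was 3.37 (3.15 to 3.60). GSDMB, a member of the pore-forming gasdermin family, was at 1365 RPKM in the mutant with erythromycin and 162.6 without it, against 113.2 and 140.4 RPKM in wild type. Only the mutant library with erythromycin was high, and the response difference was 3.30 (2.98 to 3.63). CRAT, which transfers acetyl groups to carnitine in mitochondria, was at 50.8 and 10.6 RPKM in the mutant with and without erythromycin and at 9.99 and 18.7 RPKM in wild type, a response difference of 2.94 (2.06 to 4.02). For GKAP1 and ASB11 it was 3.13 and 3.09, with 14 and 6 reads in the mutant without erythromycin. SERPINB10, a serine protease inhibitor of the serpin family, had 186 reads in the mutant with erythromycin and 1 without it, a response of 5.99 (3.87 to 8.51). Wild type had 0 and 2 reads of SERPINB10, at or under the limit of 3 reads, so no fold is given for it there. CCDC151, needed to dock the dynein arms of cilia, reached its response difference of 4.60 (4.15 to 5.10) with 85.0 and 58.3 RPKM in the mutant with and without erythromycin, against 40.5 and 723.7 RPKM in wild type. Only the wild type library without erythromycin was high for CCDC151.

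At the other end, a library without erythromycin was the highest or the lowest of the 4 for each of the genes named next. DUXAP10, a transcribed pseudogene with similar copies elsewhere in the genome that make its count uncertain, was at 90.6 RPKM in the mutant with erythromycin and 18121 without it, against 2836 and 1448 RPKM in wild type. Its response difference was -8.66 (-9.05 to -8.29). DBP (chromosome 19, 48630030 to 48637438, minus strand), a transcription factor of the circadian output, was at 5624 and 4359 RPKM in the mutant with and without erythromycin, and at 1895 and 25.5 RPKM in wild type. The wild type library without erythromycin was far below the other 3, and the response difference was -5.86 (-6.24 to -5.57). ZNFX1, a helicase that senses foreign RNA, was at 48.8 RPKM in the mutant with erythromycin and 1727 without it, against 404 and 459 RPKM in wild type, a response difference of -5.00 (-5.21 to -4.85). KAT7, a histone acetyltransferase, was at 89.4 and 697 RPKM in the mutant and 68.6 and 50.9 RPKM in wild type, with and without erythromycin in each. Only the mutant library without erythromycin was high for KAT7, whose response difference was -3.44 (-3.80 to -3.12). RASD1, a small GTPase induced by glucocorticoids, had a response difference of -5.40 on 14 and 194 reads in the mutant and 18 and 10 in wild type. For ITGB2, the beta subunit of leukocyte integrins, it was -3.16 (-3.77 to -2.82), with the wild type library without erythromycin alone on the low side.

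Of the genes that opposed with the mutant higher, PAFAH1B3, a catalytic subunit of platelet-activating factor acetylhydrolase, was at 1257 RPKM in the mutant with erythromycin and 530 without it, against 445 and 895 RPKM in wild type. The treated library was the higher one in the mutant and the lower one in wild type, with a response difference of 2.18 (1.94 to 2.42). HPSE2, a relative of heparanase, was at 540 and 279 RPKM in the mutant with and without erythromycin and at 604 and 1290 RPKM in wild type, a response difference of 1.98 (1.78 to 2.18). SIRT5, which removes succinyl groups from mitochondrial proteins, was at 74.4 and 30.1 RPKM in the mutant and 16.4 and 34.0 RPKM in wild type. KLK7, a serine protease of the skin, and SLC13A4, a sulfate transporter, had response differences of 2.54 (1.83 to 3.28) and 2.13 (1.48 to 3.08). MT-ND4L, which ranked first in this direction by its weaker response, is described with the other mitochondrial genes.

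Among the 4506 genes, 3 opposed with the mutant lower and reached 2-fold in both genotypes. ITGB3 (chromosome 17, 47253846 to 47311816, plus strand), an integrin beta subunit, was at 51.5 RPKM in the mutant with erythromycin and 148.9 without it, against 75.1 and 24.9 RPKM in wild type. Its responses were -1.57 in the mutant and 1.57 in wild type, and the response difference was -3.13 (-3.59 to -2.78). LCN10, a lipocalin, and GLIPR1, a secreted protein of the CAP family, followed with response differences of -3.25 (-3.82 to -2.72) and -3.13 (-3.82 to -2.54). SYMPK, a scaffold of the machinery that cleaves pre-mRNA 3′ ends, was better covered, at 298 and 564 RPKM in the mutant and 251 and 108 RPKM in wild type. Its response difference was -2.20 (-2.36 to -2.05). ADGRG6, an adhesion receptor, had -2.16 (-2.71 to -1.80), and KCTD5, an adaptor of cullin ubiquitin ligases, had -1.56 (-2.35 to -0.83). IGSF22 had -4.07 (-4.43 to -3.85), with the wild type library without erythromycin alone on the low side.

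**Figure D3:**
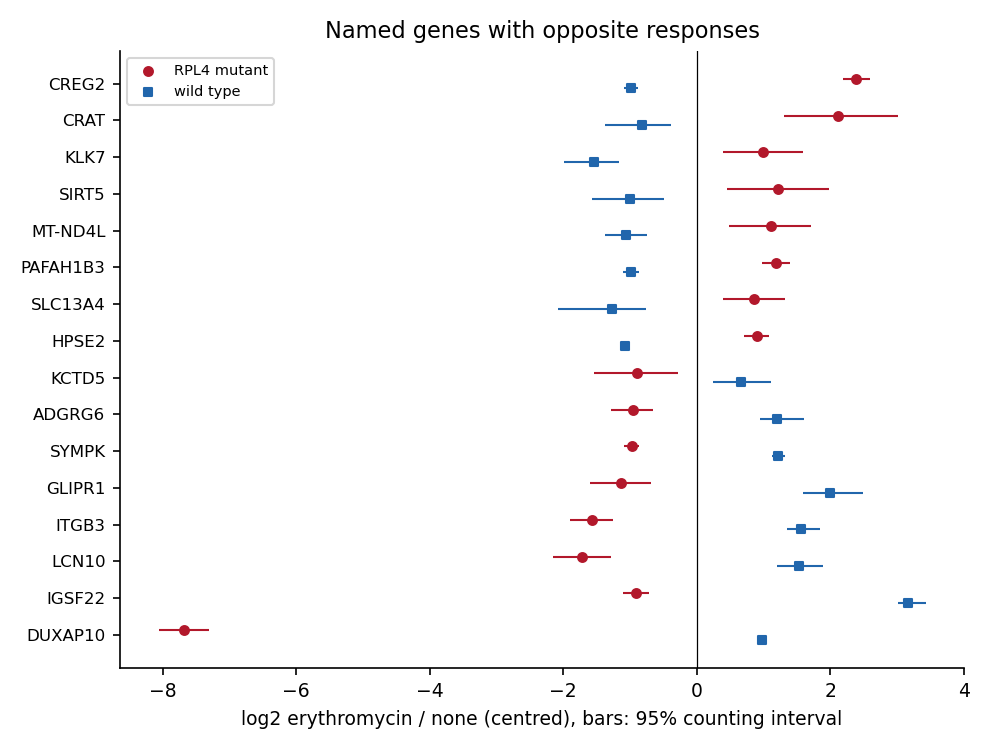
Erythromycin responses (centred log2 ratio) of the 16 named genes with opposite responses, in RPL4 mutant (circles) and wild type (squares); bars are 95% counting intervals and there is 1 library per group. The genes in the upper part were higher with erythromycin in the mutant and lower in wild type, and those in the lower part the reverse.

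Agreement at a high level was clearest for TRPV2, GDF2, OR4D2 and TMEM253. TRPV2, a cation channel, was at 723 RPKM in the mutant with erythromycin and 98.0 without it, and at 287 and 69.1 RPKM in wild type. GDF2, a ligand of the bone morphogenetic protein family, was at 560 and 51.3 RPKM in the mutant and 33.4 and 7.06 RPKM in wild type. For both, erythromycin was the higher library in each genotype, and the mutant response was the larger one, with response differences of 0.76 (0.46 to 1.05) and 1.26 (0.39 to 1.90). OR4D2, an olfactory receptor, had responses of 3.42 in the mutant and 1.91 in wild type, and TMEM253 had 1.75 and 2.36. The named genes that agreed on a lower level had smaller responses. NANOS3, a germ cell RNA-binding protein, had responses of -1.23 in the mutant and -1.20 in wild type, and its response difference of -0.03 had an interval of -0.62 to 0.61. SAMD9, an antiviral factor, had responses of -1.50 and -0.81, GMIP -1.10 and -0.80, and GAMT, an enzyme of creatine synthesis, -0.73 and -0.82, the mutant first in each pair.

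Gene lists put these single genes into functional groups. Of 33 lists with at least 5 measured members, 27 had a median response difference below 0 and 6 above 0. In 14 lists the median response was below 0 in the mutant and above 0 in wild type, and in 4 it was the reverse. The median over all genes tested was 0.00, and 49.7% of them lay below 0, although this share was larger among well covered genes, as given above. A list is called shifted here where its median reached 0.3 in size and at least 70% of its members lay on that side. This held for 5 lists: mitochondrially encoded genes on the higher side, and cytosolic heat shock, endoplasmic reticulum folding, spliceosome and immediate early genes on the lower side. The first and second of these 5 met the criterion under each of 11 other settings tried, and the other 3 did not under several.

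**Figure D4:**
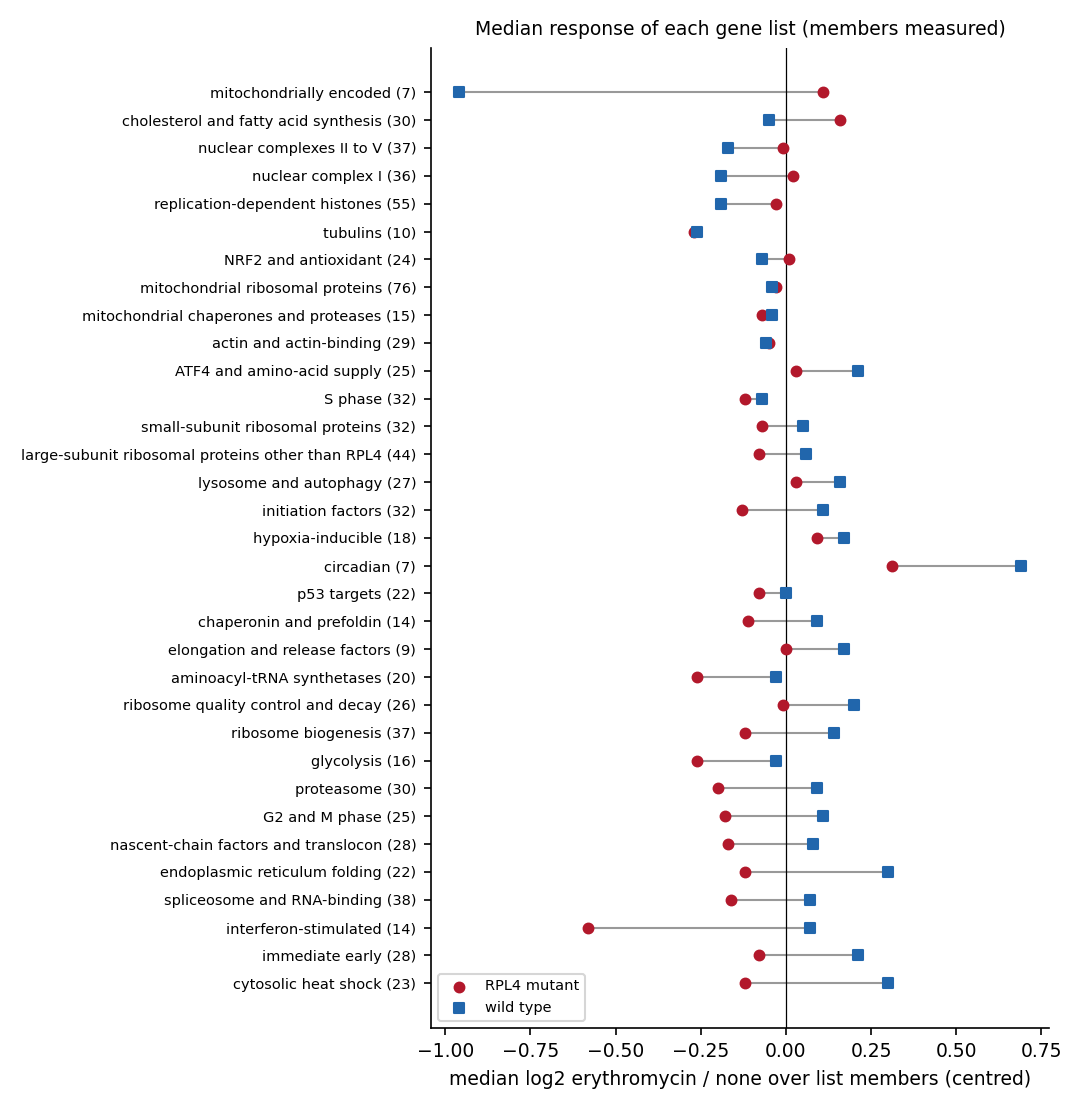
Median response to erythromycin (centred log2 ratio) over the measured members of each gene list, in RPL4 mutant (circles) and wild type (squares), with the number of members in parentheses and lists ordered by their median response difference. Mitochondrially encoded genes stand at the top with medians of 0.11 and -0.96, and cytosolic heat shock stands at the bottom with -0.12 and 0.30.

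The 7 mitochondrially encoded genes measured carry subunits of complex I, cytochrome oxidase and ATP synthase, and they are translated by mitochondrial ribosomes. All 7 were lower with erythromycin in wild type (50.0% of genes tested), with a median response of -0.96, whereas the median in the mutant was 0.11, with 4 above and 3 below 0. The response difference was above 0 for 6 of 7 (50.3% of genes tested), with a median of 0.94. The counting interval left out 0 on the higher side for the same number, 6 of 7 (8.74% of genes tested). On that side 3 of 7 reached 2-fold (8.34% of genes tested). Together these genes held 0.224% and 0.229% of all reads in the mutant with and without erythromycin, and 0.0816% and 0.144% in wild type. Their share was thus nearly equal in the mutant libraries and lowest in wild type with erythromycin.

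For the cytochrome oxidase subunit MT-CO2 (mitochondrial genome, 7586 to 8269, plus strand), the levels were 477 RPKM in the mutant with erythromycin and 426 without it, against 128 and 314 RPKM in wild type. Wild type with erythromycin alone was low, and the response difference was 1.38 (1.04 to 1.73). MT-CO1, the catalytic subunit of cytochrome oxidase, was at 454 and 588 RPKM in the mutant and 166 and 331 RPKM in wild type. Erythromycin was the lower library in both genotypes for MT-CO1, less so in the mutant, with a response difference of 0.55 (0.34 to 0.76). MT-ND6, a complex I subunit and the only gene of these on the other strand, was at 911 and 564 RPKM in the mutant and 286 and 357 RPKM in wild type, a response difference of 0.94 (0.63 to 1.25). MT-ND4L (mitochondrial genome, 10470 to 10766, plus strand), another subunit of complex I, was at 339 and 150 RPKM in the mutant and 149 and 316 RPKM in wild type. Its responses of 1.11 and -1.06 gave the highest response difference of the list, 2.18 (1.48 to 2.85). The ATP synthase subunits MT-ATP8 and MT-ATP6 had response differences of 1.49 (0.90 to 2.07) and 0.90 (0.45 to 1.36). MT-ND5 was the exception: at 190.5 and 293 RPKM in the mutant and 93.3 and 130.5 RPKM in wild type, it was lower with erythromycin in both, with a response difference of -0.21 (-0.49 to 0.07). MT-ATP8 overlaps MT-ATP6 and MT-ND4L overlaps MT-ND4, so reads in the shared stretches could be assigned to either. Other genes of the mitochondrial genome were not analysed here.

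Subunits of these complexes that are encoded in the nucleus had small median differences. The median response difference was 0.11 over 36 genes of complex I and 0.17 over 37 genes of complexes II to V. Above 0 were 25 and 26 members (50.3% of genes tested). In complex I, 10 intervals lay above 0 (8.74% of genes tested) and 3 below (10.7%). In complexes II to V, 8 intervals lay above 0 and 2 below. NDUFA1, an accessory subunit of complex I, had -0.26 (-0.50 to -0.02) and NDUFA13 had 1.20 (0.22 to 2.14), while ATP5ME, a subunit of ATP synthase, had 0.73 (0.44 to 1.01). For 76 mitochondrial ribosomal proteins the median was -0.05, and for 15 mitochondrial chaperones and proteases it was also -0.05, among them HSPE1 at -0.47 (-0.90 to -0.04).

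**Figure D5:**
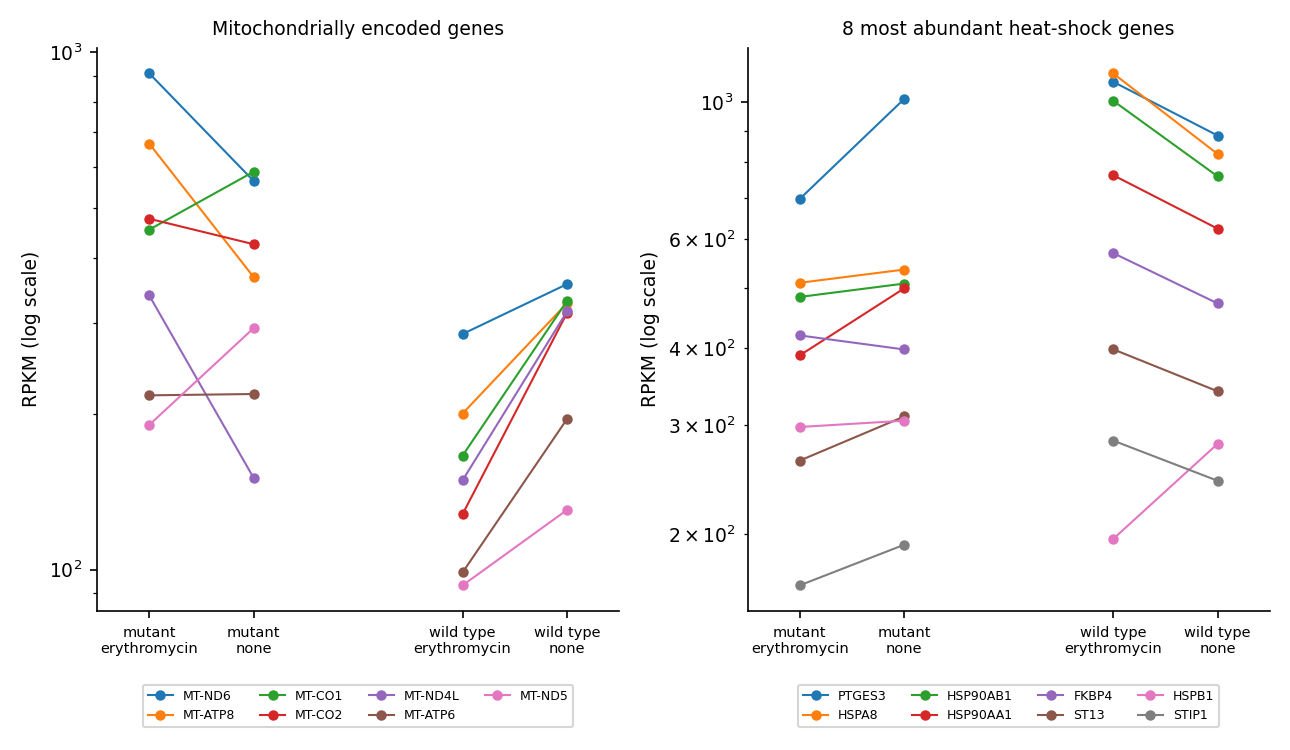
RPKM (log scale) in each of the 4 libraries for the 7 mitochondrially encoded genes (left) and for the 8 most abundant cytosolic heat-shock genes (right); lines join the libraries of 1 genotype. In wild type every mitochondrially encoded gene is lower with erythromycin, and 7 of the 8 heat-shock genes are higher with it, HSPB1 being the exception.

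Cytosolic heat-shock genes, the chaperones and co-chaperones that fold proteins leaving the cytosolic ribosome, ran the other way. Of 23 measured, 22 were above 0 in wild type (50.0% of genes tested) and 17 were below 0 in the mutant (50.0%), and 16 did both (24.7%). The response difference was below 0 for 20 of 23 (49.7% of genes tested), with a median of -0.50. The interval lay below 0 for 14 of 23 (10.7% of genes tested) and above 0 for 1. Their share of all reads was 0.648% and 0.716% in the mutant with and without erythromycin, and 1.14% and 0.914% in wild type. Differences were moderate in size, with 1 member past 2-fold, on the lower side (5.58% of genes tested).

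The share of genes below 0 was also high among well covered genes in general, at 57.6% with 100 to 200 expected reads and 67.1% with 500 or more. The share with an interval below 0 was 22.1% and 50.9% in these classes. The HEK293 markers VIM, KRT8 and KRT18 lay on the same side, with response differences of -0.48 (-0.64 to -0.32), -0.53 (-0.79 to -0.28) and -0.69 (-0.98 to -0.40), while NEFL had 0.32 (-0.26 to 0.91), a median of -0.51 over the 4. Their part in the result was not tested. HSPA8, the constitutive cytosolic HSP70, was at 510 RPKM in the mutant with erythromycin and 536 without it, against 1114 and 825 RPKM in wild type. The mutant libraries were close to each other, wild type with erythromycin was the highest, and the response difference was -0.57 (-0.73 to -0.42). The HSP90 genes followed the same order. HSP90AB1 was at 484 and 509 RPKM in the mutant and 1006 and 759 RPKM in wild type, and HSP90AA1 at 389 and 500 RPKM in the mutant and 762 and 625 RPKM in wild type. Their response differences were -0.55 (-0.70 to -0.40) and -0.71 (-0.86 to -0.57). PTGES3, the HSP90 co-chaperone p23 and the most abundant member, was at 698 and 1013 RPKM in the mutant and 1080 and 884 RPKM in wild type, a response difference of -0.89 (-1.14 to -0.65). AHSA1, which activates the ATPase of HSP90, had -0.87 (-1.24 to -0.51), and the HSP70 exchange factor HSPA4 had -0.58 (-0.93 to -0.26). HSPA4L, a relative of it, had the largest value, -1.28 (-2.27 to -0.47), on 19 and 28 reads in the mutant. The exceptions were the small heat-shock protein HSPB1, at 0.41 (0.01 to 0.80), the HSP40 protein DNAJB1, at 0.17 (-0.26 to 0.59), and BAG3, at 0.07 (-0.80 to 0.91). HSPA1A and HSPA1B are near-identical copies whose reads cannot be told apart with certainty. Their values were -0.57 (-1.24 to 0.06) and -0.08 (-0.61 to 0.43).

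Many genes of this kind are induced by heat-shock factor through promoter elements made of inverted GAA units. The 250 bases before the gene start in RefSeq (GRCh38.p14) were searched for a pair of units, GAANNTTC or TTCNNGAA, each of which reads the same on both strands. A run of 3 units is such a pair followed, after any 2 bases, by a further unit in the alternate orientation; it holds 2 overlapping pairs and was searched on both strands. A promoter sequence was matched for 19 of the 23 heat-shock genes. A pair was found in 7 of 19 (36.8%), against 640 of 7678 genes tested with a promoter (8.34%) and 3208 of 27305 RefSeq promoters (11.7%). A run of 3 was found in 3 of 19 (15.8%), against 19 of 7678 (0.247%). The members were chosen as heat-shock genes, so a larger share among them than among all genes does not bear on their response differences. Genes with and without a pair were not compared in their responses. Pairs were found in 0 of 21 endoplasmic reticulum folding genes, 4 of 34 spliceosome genes (11.8%) and 2 of 19 immediate early genes (10.5%). The 3 stretches of 60 bases with a run are shown because theirs are the genes of the list in which a run was found, with runs in capitals, 5′ to 3′ on the strand of the gene. They lie at chr11:123062327-123062386 (minus strand), chr7:157336849-157336908 (plus strand) and chr11:90223074-90223133 (minus strand).
HSPA8: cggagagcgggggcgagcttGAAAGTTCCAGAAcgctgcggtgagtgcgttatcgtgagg
DNAJB6: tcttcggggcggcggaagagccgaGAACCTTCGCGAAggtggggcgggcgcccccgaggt
CHORDC1: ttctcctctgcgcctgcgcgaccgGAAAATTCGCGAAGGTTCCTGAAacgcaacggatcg
HSPA8 holds a further run outside the stretch shown. These 3 genes did not share one value. HSPA8 is given above, and DNAJB6, an HSP40 protein, had a response difference of -0.79 (-1.36 to -0.24). CHORDC1, an HSP90 co-chaperone with 3 overlapping runs, was at 58.4 and 48.0 RPKM in the mutant and 79.9 and 68.5 RPKM in wild type. It was higher with erythromycin in both genotypes, with a response difference of -0.01 (-0.72 to 0.68). A match in these windows is a description of letters, not a binding site.

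Chaperones of the endoplasmic reticulum had the same arrangement, less evenly. Of 22 measured, 16 had a response difference below 0 (49.7% of genes tested), and the median was -0.33. Of their intervals, 8 lay below 0 (10.7% of genes tested) and 1 above (8.74%). CALR, a lectin chaperone of the endoplasmic reticulum, was at 502.5 RPKM in the mutant with erythromycin and 620 without it, against 614 and 480 RPKM in wild type. Erythromycin was the lower library in the mutant and the higher one in wild type, with a response difference of -0.72 (-0.92 to -0.53). HSPA5, the HSP70 of this compartment, was at 111 and 159 RPKM in the mutant and 165 and 131 RPKM in wild type, a response difference of -0.91 (-1.23 to -0.60). The disulfide isomerases PDIA6 and PDIA3 had -0.65 (-0.97 to -0.34) and -0.52 (-0.87 to -0.17), and the transcription factor XBP1 had -0.86 (-1.58 to -0.19). EDEM1, which marks misfolded glycoproteins for degradation, had the highest value, 1.71 (0.67 to 3.06), on 25 and 11 reads in the mutant and 24 and 80 in wild type. MANF, a secreted factor of the endoplasmic reticulum, was at 0.65 (0.00 to 1.29).

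Immediate early genes were mostly on the lower side as well, on fewer reads. Over 28 immediate early genes, 20 lay below 0 (49.7% of genes tested) and the median was -0.37. At least 2-fold lower were 5 (5.58% of genes tested), and 4 intervals lay below 0, a share near the 10.7% of genes tested. GADD45B, a regulator of stress signalling, was at 58.8 RPKM in the mutant with erythromycin and 62.3 without it, against 176.9 and 31.1 RPKM in wild type. Only wild type with erythromycin was high, and the response difference was -2.62 (-3.58 to -1.74). IER2 and the transcription factor EGR1 had -1.17 (-1.95 to -0.43) and -1.18 (-2.48 to -0.10). JUN, the most abundant member, had -0.27 (-0.72 to 0.17). Among 25 genes of the ATF4 pathway, which supplies amino acids under stress, the median was -0.12, with 15 below 0 and 10 above, and 9 intervals lay below 0 (10.7% of genes tested), with 0 above (8.74%). DDIT3, the stress transcription factor CHOP, was at 27.8 and 25.7 RPKM in the mutant and 53.4 and 15.7 RPKM in wild type, a response difference of -1.66 (-3.04 to -0.42) on 16 and 9 reads in the mutant. ATF3 and TRIB3, a transcription factor and a pseudokinase of the same response, had -1.06 (-1.88 to -0.28) and -1.31 (-2.35 to -0.37). ATF4 itself was higher with erythromycin in both, with responses of 0.41 and 0.34 and a response difference of 0.07 (-0.30 to 0.43).

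RNA-binding and splicing factors lay mostly on the lower side. Of 38 genes, 33 had a response difference below 0 (49.7% of genes tested), and the median was -0.33. Of their intervals, 18 lay below 0 (10.7% of genes tested) against 1 above (8.74%). In the depth classes of 200 to 500 and of 500 or more expected reads, 40.9% and 50.9% of genes had an interval below 0. HNRNPA1, a heterogeneous nuclear ribonucleoprotein, the class that packages nascent transcripts, was at 662 RPKM in the mutant with erythromycin and 767 without it, against 1092 and 796.5 RPKM in wild type. Its response difference was -0.74 (-0.91 to -0.56). HNRNPA2B1, HNRNPC and HNRNPD, of the same class, had -0.48 (-0.61 to -0.35), -0.64 (-0.86 to -0.43) and -0.73 (-1.01 to -0.46). SNRPD2, a core protein of the spliceosomal particles and the most abundant member, was on the other side at 0.23 (0.05 to 0.41). These genes are well covered, and the median was -0.25 when each ratio was centred on genes of a like level.

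The cytosolic translation apparatus had smaller median differences on the same side. The median was -0.15 over 44 large-subunit ribosomal proteins other than RPL4 and -0.13 over 32 small-subunit proteins, with 21 and 15 intervals below 0 (10.7% of genes tested) and 4 and 3 above (8.74%). Under 5 other filters or centrings these medians were between -0.11 and -0.08 and between -0.08 and -0.05. Both lists are well covered, with median levels of 2981.5 and 2701.2 RPKM. In the depth class of 500 or more expected reads, 50.9% of genes had an interval below 0 and 18.6% had one above 0. RPS4X, a small-subunit protein that like others has processed pseudogenes which could share its reads, had the largest value of its list: 4695 and 5706 RPKM in the mutant and 7452 and 6410 RPKM in wild type gave -0.57 (-0.65 to -0.49). RPS15 and RPL37A, the most abundant of their lists, had 0.06 (-0.03 to 0.14) and 0.11 (0.00 to 0.22), and RPS15 was at -0.10 when ratios were centred on genes of like GC content. Ribosome biogenesis factors had a median of -0.23, with 30 of 37 below 0 (49.7% of genes tested). They had 12 intervals below 0 (10.7% of genes tested) against 0 above (8.74%). NPM1, a nucleolar chaperone, was at 1624 and 2051 RPKM in the mutant and 2931 and 2285 RPKM in wild type, a response difference of -0.76 (-0.89 to -0.64). NCL, the nucleolar protein nucleolin, had -0.70 (-0.87 to -0.53). Initiation factors had a median of -0.18, elongation and release factors -0.21 and aminoacyl-tRNA synthetases -0.21, among them EIF5B at -0.80 (-1.33 to -0.33), ABCE1 at -0.79 (-1.35 to -0.26) and KARS at -0.91 (-1.40 to -0.45).

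Factors that meet the nascent chain at the tunnel exit gave a median of -0.29 over 28 genes, with 21 below 0 (49.7% of genes tested). They had 6 intervals below 0 (10.7%) against 2 above (8.74%). BTF3, a subunit of the nascent polypeptide-associated complex, was at 1094 and 1191 RPKM in the mutant and 1553 and 1464 RPKM in wild type, a response difference of -0.28 (-0.47 to -0.09). SRPRA, the receptor of the signal recognition particle, had 0.76 (0.11 to 1.44). Over 26 genes of ribosome quality control and decay the median was -0.21. RACK1, a ribosomal scaffold protein, had -0.56 (-0.66 to -0.46), whereas ASCC2, part of the complex that splits collided ribosomes, had 0.94 (0.65 to 1.24). The cytosolic chaperonin and prefoldin had a median of -0.20, with 10 of 14 members below 0 (49.7% of genes tested). Among genes with 100 to 200 and with 500 or more expected reads, 57.6% and 67.1% lay below 0. The wild type response was above 0 for 13 of 14 (50.0% of genes tested). The interval of the response difference lay below 0 for 6 (10.7%) and above 0 for 0 (8.74%), with CCT4 at -0.73 (-0.94 to -0.52).

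Cholesterol and fatty acid synthesis had the second highest median response difference of the lists. Its median was 0.23, with 21 of 30 members above 0 (50.3% of genes tested). It had 7 intervals above 0 (8.74% of genes tested) against 0 below (10.7%), and 4 members past 2-fold on the higher side (8.34%). SREBF2, the transcription factor that drives the pathway, was at 49.1 RPKM in the mutant with erythromycin and 42.0 without it, against 18.3 and 41.9 RPKM in wild type. Wild type with erythromycin was low and the other 3 libraries were close, a response difference of 1.31 (0.89 to 1.80). INSIG1, which retains the precursor of that factor in the endoplasmic reticulum, was at 413 and 190 RPKM in the mutant and 281 and 198 RPKM in wild type. It was higher with erythromycin in both genotypes, more so in the mutant, with a response difference of 0.54 (0.17 to 0.91). HMGCS1, an early enzyme of cholesterol synthesis, was likewise higher in both, with a response difference of 0.39 (0.00 to 0.78). The desaturase FADS2 had 0.87 (0.26 to 1.47). TM7SF2, a sterol reductase, had the highest value, 3.46 (1.86 to 5.49), on 21 and 3 reads in the mutant.

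Of the other lists, some had similar medians in the genotypes and some lay mostly below 0. Tubulins were lower with erythromycin in both genotypes, with medians of -0.27 in the mutant and -0.26 in wild type. In each, 9 of 10 members were below 0 (50.0% of genes tested), and the median response difference was 0.01. TUBB, the most abundant tubulin, was at 1358 and 1846 RPKM in the mutant and 2261 and 2578 RPKM in wild type, a response difference of -0.32 (-0.43 to -0.21). TUBB4B had the largest difference of the list, -0.49 (-0.64 to -0.34). Among the 10 members, 3 intervals lay below 0 (10.7% of genes tested) and 0 above (8.74%). With the reads of all listed tubulins summed, the response difference was -0.28 (-0.36 to -0.21), unlike the median over members. The copies of this family are alike, so single members are uncertain. GAPDH, an enzyme of glycolysis, had nearly equal responses of -0.34 and -0.32. Its list nonetheless had a median of -0.25, with 14 of 16 members below 0 (49.7% of genes tested). Replication-dependent histones had a median of 0.10, with 38 of 55 above 0 (50.3% of genes tested). Of their intervals, 15 lay above 0 (8.74% of genes tested) and 4 below (10.7%). Proteasome genes had a median of -0.25 with 23 of 30 below 0, and genes of the G2 and M phases -0.29 with 21 of 25 below 0. The share below 0 was 49.7% of genes tested, but 57.6% with 100 to 200 expected reads and 67.1% with 500 or more. In the G2 and M list, 9 intervals lay below 0 (10.7% of genes tested) and 1 above (8.74%). Its most abundant member, CKS2, had -0.21 (-0.63 to 0.20). CENPA had the largest difference in size, on the other side, at 0.76 (-0.25 to 1.73). CCNB1, the mitotic cyclin, and TOP2A, a topoisomerase of dividing cells, had -0.65 (-0.93 to -0.37) and -0.70 (-0.95 to -0.46). Of the hypoxia-inducible genes, whose median was -0.18 and 0.22 over the 7 with at least 20 expected reads, ANKRD37 stood apart at 2.54 (2.17 to 2.92). It was at 794 and 535 RPKM in the mutant and 113.5 and 471 RPKM in wild type, so that wild type with erythromycin alone was low. The p53 targets gave -0.19, and 0.10 with the same depth limit. Interferon-stimulated genes had a median of -0.35 with 9 of 14 below 0 (49.7% of genes tested), on few reads. The median response difference was -0.12 for S phase genes, -0.01 for antioxidant genes of the NRF2 pathway, -0.16 for lysosome and autophagy genes, -0.07 for actin and actin-binding genes and -0.19 for 7 circadian genes.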

How the data were processed

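The authors deposited 1 RPKM value per transcript for each of 4 libraries, and transcripts absent from a file were read as 0. Cutadapt, STAR and GRCh38 are listed, per the submitters' processing notes, without roles or versions. The read counter is not given in the sources used here. Of 16292 transcripts, 16172 were matched to GENCODE release 29 and 120 were not. RPKM times coding length gave whole reads (within 0.001) for 99.14% to 99.19% of matched transcripts, which yielded the library totals and the reads per gene. Lengths of 216 transcripts were solved from the values. Named coordinates are those of the counted transcript in GRCh38.

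Log2 ratios of RPKM + 1 were centred on the median of genes that averaged 5 RPKM or more. Counting intervals (95%) come from reads + 0.5 on the log scale, without the pseudocount. The labels name no molecular identifiers, and the intervals cover counting error only. For a coding sequence of 1 kb, 3 reads, the most that a count of 0 allows, are 3.02 and 4.96 RPKM in the mutant with and without erythromycin and 1.17 and 1.01 RPKM in wild type. No test was run, since there is 1 library per group. Members and the 35 gene lists were chosen with earlier results of these data known.

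Genes were named by rule: RPL4; among genes of at least 20 mean RPKM and 20 expected reads in the shallowest library, the 8 highest and 8 lowest response differences, 8 opposing genes in each direction and 4 agreeing genes in each direction, ranked by the weaker response; and from each list the most abundant member and the one with the largest response difference, with all measured mitochondrially encoded genes. Further list members were named after their values were seen. Not every gene picked by this rule is reported here. Other pseudocounts, filters and centrings were tried. The computation was tested on simulated data. Python 3.11.15 with pandas 2.3.3 and numpy 2.4.6 was used.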

Additional observations from a re-analysis of the deposited data

Results flagged for a closer look

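Some responses opposed each other between the genotypes in sign. With 1 library per group, none of these differences was tested. At 2-fold in both genotypes among the opposing genes named from the 4506 of at least 20 mean RPKM and 20 expected reads in the shallowest library, MT-ND4L was higher with erythromycin in the mutant and lower in wild type, with a response difference of 2.18, while ITGB3 (-3.13), LCN10 (-3.25) and GLIPR1 (-3.13) were lower in the mutant and higher in wild type. Of the lists with 5 or more genes measured, 14 had medians below 0 in the mutant and above 0 in wild type, and 4 the reverse. The 5 of these that met the criterion for a shift had a median response difference of 0.94 for mitochondrially encoded genes, -0.50 for cytosolic heat shock, -0.33 for endoplasmic reticulum folding, -0.33 for the spliceosome and RNA-binding list and -0.37 for immediate early genes.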

How the results depend on the processing

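No paired analysis was possible because there is 1 library per group, and leaving out a library removes a group. No gene picked by the naming rule and no shifted list changed direction under the 11 alternatives when its value had been called. List members named after their values were seen were not followed singly under these alternatives. Counts depended on the pseudocount and the filter. Genes at least 2-fold higher numbered 463 with a pseudocount of 5 RPKM, 1476 with a minimum of 1 RPKM, 270 with 20 RPKM, 2234 with no filter and 199 with at least 20 expected reads in the shallowest library; genes at least 2-fold lower numbered 295, 1073, 169, 1463 and 110 in the same order. With an interval off 0, 229 were higher and 149 lower at 20 RPKM, and 197 and 110 at 20 expected reads.

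Opposing genes at 2-fold, higher in the mutant, numbered 43 and 3 with pseudocounts of 0.1 and 5, then 87 (1 RPKM), 7 (20 RPKM), 113 (no filter) and 3 (20 expected reads); lower in the mutant they numbered 28, 7, 60, 4, 66 and 3. Agreeing genes lower in both numbered 30, 4, 50, 1, 57 and 1 in that order, and those higher in both 20 (pseudocount 5), 108, 19, 120 and 18. Pearson's r was 0.0154 at 1 RPKM, 0.00964 with no filter and 0.0653 at 20 expected reads, and the same-sign share 47.4% with no filter. Centring on genes of a like level or GC content was chosen after seeing the data. The spliceosome median was -0.25 both with centring on genes of at least 50 RPKM and with centring on genes of a like level. Over the 11 alternatives the medians lay between 0.93 and 1.07 for mitochondrially encoded genes, -0.51 and -0.42 for heat shock, -0.36 and -0.25 for endoplasmic reticulum folding, -0.34 and -0.25 for the spliceosome and -0.51 and -0.28 for immediate early genes; the last 3 lists met the criterion for a shift under 5, 5 and 6 of 11. Between 54.8% and 67.9% of genes past 2-fold were higher in the mutant, against 59.9% as reported. The mutant libraries were the shallowest, and depth limits values of genes with few reads there. Spread between cultures was not measured, so no value shows that it would recur in another culture.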
